A study of Drosophila melanogaster with 3 samples.

Results

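Cytoplasmic ribosomal protein genes were described as targets of CG9727-eGFP in whole Drosophila melanogaster embryos. The members were 88 of 13945 protein-coding genes on the 6 main chromosome arms, 50 encoding proteins of the large (60S) subunit and 38 encoding proteins of the small (40S) subunit. A gene was a member if its symbol began with RpL or RpS followed by a digit, or was RpLP0, RpLP1, RpLP2 or sta, and 5 symbols holding "like" were left out. The set itself was chosen by what earlier inspection of these summits had shown, so the share bound, the summit position, the signal and the rank of the members are given as descriptions without a test.

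The study had 1 group. Chromatin was immunoprecipitated with an antibody against GFP from mixed-sex embryos collected at 0 to 24 h from a transgenic line that stably carries CG9727 fused to eGFP at its C-terminus, and the labels give 3 biological replicates, all from that single line. Binding was therefore averaged over all embryonic stages and cell types, it was read through the tag, and untagged embryos were not analysed here. The lists analysed were 7896 peaks thresholded by irreproducible discovery rate from the replicates together, and a relaxed list of 30000 peaks for each replicate; each peak has a summit and an enrichment score over control set by the authors' peak caller, called its signal here. Read depth is unknown, because the lists hold no read counts. A gene is called bound where the distance from any of its annotated transcription start sites (TSSs) to the nearest summit was at most 500 bp, and for a replicate its strongest 7896 peaks were used. Offsets are summit minus TSS along the direction of transcription, so negative values are upstream, and rank 1 is the strongest peak of a list.

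Ribosomal proteins assemble with rRNA into equal numbers of large and small subunits, and flies that lack a single gene copy of many of them show the Minute phenotype of slow development and thin bristles. In Drosophila their promoters are known for the TCT initiator, a pyrimidine-rich start site at which transcription begins on the cytosine, in place of the usual initiator (Inr). The TBP-related factor Trf2, the DRE-binding factor Dref and the Motif 1-binding protein M1BP are known to act at promoters of this class. Several members have a second gene copy, and RpS5b, RpS10a and RpS19b are known for transcripts enriched in the germline.

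The promoters that carry the main contrasts are shown first, each from position -60 to position 19 around the annotated TSS used by most transcripts, 5′ to 3′ on the coding strand, with the TSS as position 0. They were read from the RefSeq copy of the release 6 (dm6) assembly. Capitals mark each TCT word, CTTT with a C or a T on either side, for which the C of CTTT lay within 10 bp of the TSS. RpL13A (chr3R:5624414-5624493 on the plus strand), RpL14 (chr3L:8600946-8601025 on the plus strand) and RpL23A (chr3L:1668635-1668714 on the minus strand) stand for strongly bound single-copy genes, and all 3 hold the word within 10 bp of the TSS. The C of the first marked word lay at position 5 in RpL13A, -1 in RpL14 and 3 in RpL23A. In none of the 3 was that C at the annotated TSS.
RpL13A: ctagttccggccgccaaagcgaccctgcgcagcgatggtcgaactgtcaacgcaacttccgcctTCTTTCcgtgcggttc
RpL14: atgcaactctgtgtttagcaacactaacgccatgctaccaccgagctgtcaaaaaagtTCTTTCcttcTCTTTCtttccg
RpL23A: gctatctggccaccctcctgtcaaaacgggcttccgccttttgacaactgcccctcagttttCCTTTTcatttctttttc

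Duplicate copies are shown in pairs in which 1 copy was bound, with the bound copy first: RpS5a (chrX:17148245-17148324 on the minus strand) and RpS5b (chr3R:14901544-14901623 on the minus strand), RpS19a (chrX:16637834-16637913 on the plus strand) and RpS19b (chr3R:23933511-23933590 on the minus strand), RpS28b (chrX:9554563-9554642 on the plus strand) and RpS28a (chr3R:30022629-30022708 on the minus strand), RpS10b (chrX:19597980-19598059 on the plus strand) and RpS10a (chr3R:27652700-27652779 on the plus strand), and RpL10Ab (chr3L:11822791-11822870 on the plus strand) and RpL10Aa (chr3R:15037306-15037385 on the plus strand). The bound copy held a TCT word in all 5 of these pairs, and the other copy held one in RpS5b.
RpS5a: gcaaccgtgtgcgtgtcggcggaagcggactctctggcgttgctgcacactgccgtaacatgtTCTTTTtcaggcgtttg
RpS5b: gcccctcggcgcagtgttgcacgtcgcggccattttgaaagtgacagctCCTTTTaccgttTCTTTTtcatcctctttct
RpS19a: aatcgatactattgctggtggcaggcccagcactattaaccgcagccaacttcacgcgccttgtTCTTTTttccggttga
RpS19b: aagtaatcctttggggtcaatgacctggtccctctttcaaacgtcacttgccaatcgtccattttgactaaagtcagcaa
RpS28b: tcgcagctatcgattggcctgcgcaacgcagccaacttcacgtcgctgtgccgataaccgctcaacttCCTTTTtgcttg
RpS28a: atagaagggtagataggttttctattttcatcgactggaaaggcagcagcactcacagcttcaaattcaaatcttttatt
RpS10b: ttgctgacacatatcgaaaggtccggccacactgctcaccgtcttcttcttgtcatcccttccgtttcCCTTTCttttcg
RpS10a: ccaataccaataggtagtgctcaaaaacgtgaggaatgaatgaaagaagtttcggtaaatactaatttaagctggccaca
RpL10Ab: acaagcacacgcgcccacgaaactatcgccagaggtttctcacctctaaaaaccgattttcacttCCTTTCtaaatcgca
RpL10Aa: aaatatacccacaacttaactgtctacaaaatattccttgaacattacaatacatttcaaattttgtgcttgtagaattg

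The last set shows promoters that held the TCT word yet had no thresholded summit, all of them beyond the outermost thresholded summit of their chromosome arm: RpL10 (chr3L:23095452-23095531 on the minus strand), RpL15 (chr3L:27267195-27267274 on the plus strand), RpL5 (chr2L:22536631-22536710 on the minus strand) and RpS3A (chr4:67188-67267 on the minus strand).
RpL10: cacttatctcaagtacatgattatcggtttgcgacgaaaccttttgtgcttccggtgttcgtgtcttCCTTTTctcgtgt
RpL15: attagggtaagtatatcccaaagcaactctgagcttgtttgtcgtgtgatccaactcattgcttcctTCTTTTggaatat
RpL5: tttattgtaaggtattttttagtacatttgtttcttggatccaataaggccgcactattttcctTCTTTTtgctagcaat
RpS3A: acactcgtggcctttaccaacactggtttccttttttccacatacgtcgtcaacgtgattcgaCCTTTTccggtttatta

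Most ribosomal protein genes carried a CG9727-eGFP summit at the start site. In the thresholded list 75 of 88 members (85.2%) were bound within 500 bp, where the share over all protein-coding genes was 27.0%. Within 100 bp the count was 67 of 88 members (76.1%), where the share over all protein-coding genes was 10.2%. The strongest peaks of replicate 1 gave 74 members (84.1%) beside 27.8% of all protein-coding genes, those of replicate 2 gave 76 members (86.4%) beside 26.4%, and those of replicate 3 gave 78 members (88.6%) beside 27.0%. The mean over replicates was 86.4% ± 2.27 (SD, n = 3) for the members and 27.1% ± 0.710 (SD, n = 3) for all protein-coding genes. Of the 88 members, 71 were bound in all 3 replicates, 6 in 2 replicates, 3 in 1 replicate and 8 in none.

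The summits lay close to the TSS. Bound members had a median offset of -24 bp (quartiles -58.5 and -2 bp), against -124 bp (quartiles -207 and -42 bp) for the 3695 other bound protein-coding genes. Of the bound members 89.3% had the summit within 100 bp, against 36.7% of the other bound genes. The summit was upstream of the TSS in 57 bound members (76.0%) and at or downstream of it in 18, against 83.7% upstream among the other bound genes. Replicates 1, 2 and 3 gave member medians of -30, -34 and -24 bp (mean -29.3 ± 5.03 bp, SD, n = 3). Other bound genes gave -116, -124 and -120 bp (mean -120 ± 4 bp, SD, n = 3). The member median was nearer to the TSS in each replicate, a description without a test. Single offsets were less steady: among the 71 members bound in every replicate the offset ranged over a median of 34 bp between replicates, and in 25 of them the summit fell on both sides of the TSS.

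**Figure D1:**
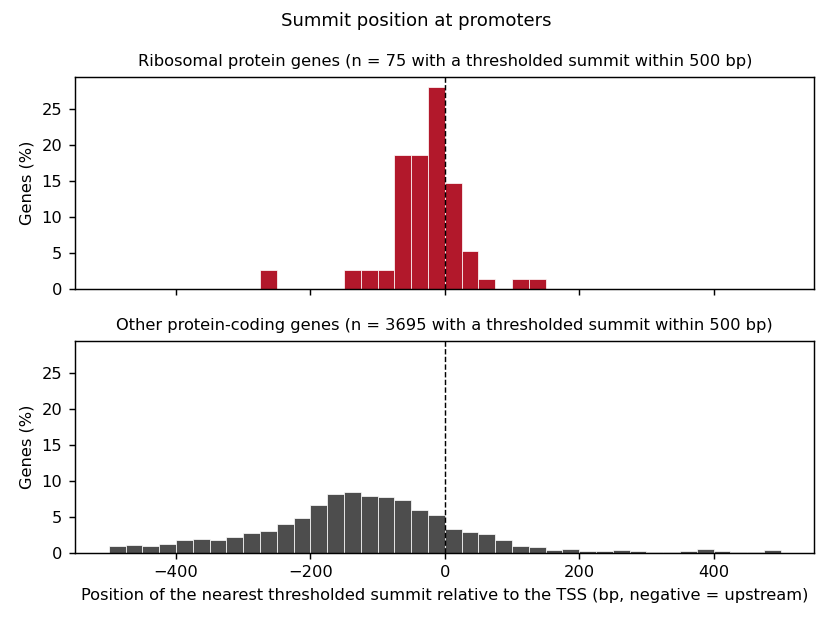
Position of the nearest thresholded summit relative to the TSS in bp (x axis, negative is upstream, dashed line at the TSS) as a percentage of the genes plotted in bins of 25 bp (y axis), for 75 bound ribosomal protein genes (top) and 3695 other bound protein-coding genes (bottom). The ribosomal protein genes peak just upstream of the TSS with a median of -24 bp, and the other genes spread around a median of -124 bp.

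The members also ranked high. Their thresholded summits had a median signal of 714.1 (quartiles 453.9 and 1092.4) and a median rank of 989, against a median signal of 301.1 (quartiles 210.5 and 516.9) and a median rank of 3630 for the other bound genes, a ratio of the median signals of 2.37. Of the 75 bound members 31 (41.3%) stood among the strongest 789 peaks, against 12.6% of the other bound genes. The median rank of members was 1122, 973 and 1216.5 in replicates 1, 2 and 3 (mean 1104 ± 123, SD, n = 3), against 3827, 3419.5 and 3587 for other bound genes (mean 3611 ± 205, SD, n = 3). The ratio of median signals was 2.20 ± 0.131 (SD, n = 3). Across the 71 members bound in every replicate, the ranks of replicate pairs correlated with Spearman's rho of 0.917, 0.943 and 0.896, a description over genes that share each library. The sequence within 50 bp of the summit had a median GC content of 46.5% in bound members and 32.7% in other bound genes, and 47.5% against 39.6% where the summit lay within 100 bp of the TSS. The part of base composition in the signal was not tested.

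The strongest member was RpS27, a zinc-binding protein of the small subunit, with a signal of 1917.4 at -14 bp and ranks of 185, 82 and 77 in replicates 1, 2 and 3. RpL7, a large-subunit protein, followed at signal 1886.3 and ranks of 104, 95 and 98. Its summit sat at 44 bp in the thresholded list and at -45, -41 and 36 bp in the replicates, and the start of Ripalpha, transcribed the other way, is 30 bp from a start of RpL7. Both genes stood among the strongest 97 thresholded peaks.

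RpL41, which encodes the shortest ribosomal protein, had a signal of 1577.2 and ranks of 223, 145 and 166. RpL19 had a signal of 1497.9 and ranks of 219, 190 and 216. RpL13A, whose promoter is printed above, had a signal of 1448.8, a summit at -58 bp and ranks of 186, 238 and 237. Its summit position was among the most repeatable, with offsets of -58, -51 and -58 bp in the replicates.

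RpL14, also printed above, had a signal of 1416.3, a summit at -27 bp and ranks of 233, 183 and 288. RpL32, the rp49 gene long used to normalise fly RNA measurements, had a signal of 1386.6 and ranks of 287, 304 and 201. RpL28 had a signal of 1382.5 and ranks of 265, 245 and 249. RpL23A, a protein at the exit of the nascent-peptide tunnel, had a signal of 1380.2 and ranks of 261, 210 and 256. Among these strongest members RpS27 was the one of the small subunit.

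Further members among the strongest 789 peaks were RpS10b, RpL34a, RpLP0, RpL34b, RpL24, RpL30, RpS25, RpL13, RpL11, RpS16, RpL4, RpL22, RpLP1, RpS4, RpS21, RpS5a, RpS28b, RpS20, RpL37A, RpS27A and RpL18, from rank 257 for RpS10b to rank 775 for RpL18. RpLP0, the base of the acidic stalk that recruits elongation factors, had a thresholded rank of 291 and replicate ranks of 405, 182 and 307. RpLP1, which binds the stalk with RpLP2, ranked 554 with replicate ranks of 560, 538 and 576. RpLP2 itself ranked 4962 in the thresholded list at 52 bp, and its nearest summits ranked 1554, 3789 and 1327 in the replicates at -23, 34 and -44 bp. A stronger summit lay farther from its TSS: the strongest within 500 bp ranked 1239 at -149 bp in the relaxed list of the replicates together, and 1283, 1117 and 1327 in replicates 1, 2 and 3. The members of the stalk were all bound, and RpLP2 ranked lowest of the 3 by its nearest and by its strongest summit.

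RpS27A and RpL40 both encode ubiquitin fused to a ribosomal protein, and they stood far apart. RpS27A had a thresholded signal of 818.6 at -60 bp and ranks of 957, 479 and 869 in replicates 1, 2 and 3. RpL40 had the weakest thresholded signal of any bound member, 164.4 at rank 7604 and -251 bp, and among the replicates it was bound in replicate 2 only, at rank 6931. RpL5 and RpL11 form the 5S particle that joins the large subunit. RpL11 ranked 488, 359 and 419 in the replicates and 405 in the thresholded list. RpL5 had no thresholded summit within 500 bp, but it lies beyond the last thresholded summit of 2L, so its level cannot be compared. RpS27A and RpL40 thus did not share a level of signal, an example picked after its values were seen.

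The 44 other bound members ran from RpS19a at rank 805 to RpL40 at rank 7604. RpS6, the target of S6 kinase, was bound at -270 bp with a signal of 455.1, the bound member farthest from its TSS, with nearest summits at -288, -8 and -149 bp in the replicates. Just inside the 500 bp limit no member came nearer to it than RpS6, and RpL40 at -251 bp was next. Just outside the limit RpS28a had its nearest thresholded summit at 561 bp and RpS19b at -877 bp. RpS3, a small-subunit protein that is also a Minute locus, ranked 5334 in the thresholded list and 5359, 5127 and 5444 in the replicates, so a low rank could be as repeatable as a high one. The least steady ranks came with a change of the nearest summit: RpS20 ranked 1117, 506 and 6243 at -81, -141 and 35 bp, and RpL26 ranked 4363, 984 and 3852 at 71, -100 and 49 bp. The strongest summit within 500 bp ranked more evenly, at 1117, 506 and 678 for RpS20 and at 974, 984 and 910 for RpL26.

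Thresholded summits at 4 bound members were missing from the strongest peaks of at least 1 replicate. Besides RpL40, these were RpS13, with ranks of 3558 and 6833 in replicates 1 and 3 and none in replicate 2, RpS2, with ranks of 3658 and 5830 in replicates 1 and 3 and none in replicate 2, and RpS24, with ranks of 6909 and 6888 in replicates 2 and 3 and none in replicate 1. Their thresholded ranks ran from RpS13 at 5433 to RpL40 at 7604. The gaps thus fell among the weak summits of the set.

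The shares bound overlapped between the subunits, and large-subunit genes had the stronger median summit in each replicate. In the thresholded list 43 of 50 large-subunit genes (86.0%) and 32 of 38 small-subunit genes (84.2%) were bound. In replicates 1, 2 and 3 the share was 84.0%, 92.0% and 88.0% for the large subunit and 84.2%, 78.9% and 89.5% for the small subunit, so the values of the subunits overlapped. The difference, large minus small, was 3.79 ± 8.05 percentage points (SD, n = 3; two-sided exact permutation test by sign flips over replicates, p = 1), and it came from replicate 2 alone, at 13.1 points, with -0.211 and -1.47 points in replicates 1 and 3. Without replicate 2 the mean difference was -0.842 points. With 3 replicates this test cannot give a p below 0.25.

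The median rank of bound large-subunit genes was 909, 902 and 968.5 in replicates 1, 2 and 3, against 1828.5, 1150 and 1832.5 for small-subunit genes. The groups' medians did not overlap, and the difference was -677 ± 373 ranks (SD, n = 3; lower for the large subunit in 3 of 3 replicates; two-sided exact permutation p = 0.25, the smallest possible). In the thresholded list the medians were rank 917 and signal 742.1 for the large subunit, against rank 1622 and signal 532.35 for the small subunit. Summits among the strongest 789 peaks were found at 21 of 43 bound large-subunit genes and 10 of 32 bound small-subunit genes. The share of other bound genes was 12.6%. The summits lay at a median of -30, -36.5 and -27 bp for the large subunit and -29, -29 and -19.5 bp for the small subunit, a difference of -5.33 ± 3.75 bp (SD, n = 3; exact permutation p = 0.25). Because the replicates come from the same set of genes, these tests speak of the spread between libraries and not of the spread between genes.

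**Figure D2:**
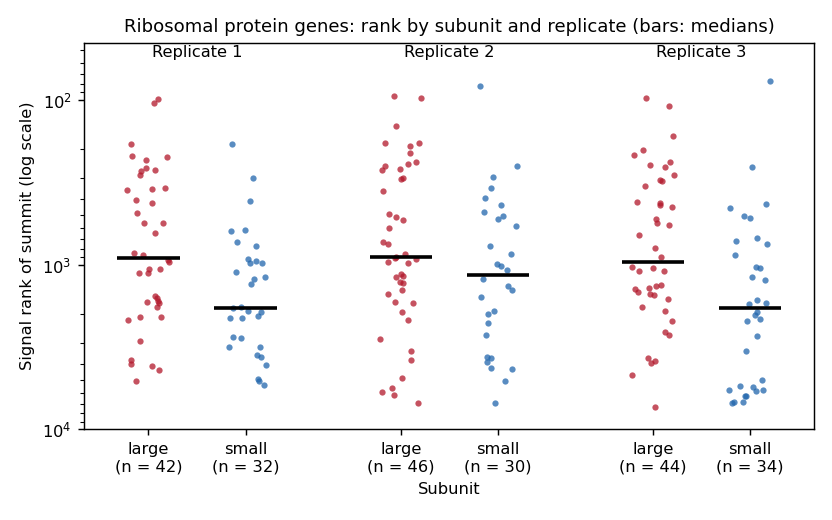
Signal rank of the nearest promoter summit (y axis, log scale with rank 1 toward the top) for bound large- and small-subunit genes in each replicate, 1 point per gene, with the median as a bar. The median of the large subunit lay between 902 and 968.5 and that of the small subunit between 1150 and 1832.5, while the points of both subunits covered nearly the same range.

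Duplicate copies of 1 protein were rarely bound alike. The 18 genes of 9 pairs included 11 bound and 7 not bound in the thresholded list: 1 copy was bound in 7 pairs and both copies in 2 pairs. RpL34a and RpL34b, both on 3R, had close ranks, with RpL34a at 282 (270, 252 and 311 in replicates 1, 2 and 3) and RpL34b at 322 (341, 263 and 335). RpS14a and RpS14b, whose starts lie 1156 bp apart on the X, had separate summits, with RpS14a at rank 816 (979, 862 and 691) and RpS14b at rank 2056 (3149, 1418 and 2031). RpS14a was the stronger copy in every replicate.

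In the other 7 pairs 1 copy had the higher-ranked summit in every replicate. These pairs were those with 1 copy in the thresholded list, which comes from the same replicates, so this order was largely set by the choice. RpS10b had a signal of 1350.2 at -36 bp and replicate ranks of 298, 251 and 257, whereas RpS10a had no relaxed summit within 500 bp in replicate 1 and summits at ranks 20014 and 29585 of 30000 in replicates 2 and 3. RpS5a had a signal of 853.4 at -66 bp and replicate ranks of 1182, 583 and 519, whereas the strongest relaxed summits of RpS5b ranked 10338, 9491 and 18314. RpS28b had a signal of 845.3 at -36 bp and ranks of 771, 527 and 749, whereas those of RpS28a ranked 13475, 11476 and 6855, the last at 354 bp. RpS28a thus counted as bound in replicate 3, within its strongest 7896 peaks, together with RpS28b, while RpS5b lay below that limit in every replicate.

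RpS19a had a signal of 787.6 at -41 bp and ranks of 732, 772 and 1039, whereas RpS19b had no relaxed summit within 500 bp in any replicate. RpL37-1 had a signal of 556.9 at -42 bp and ranks of 1800, 1430 and 1538, and RpL37-2 had none in any replicate. RpL10Ab had a signal of 464.3 at -123 bp and ranks of 3801, 1694 and 2215 for the nearest summit and 2816, 1694 and 1220 for the strongest one, and RpL10Aa had none in any replicate. RpS15Aa had a signal of 554.6 at 28 bp and ranks of 1811, 989 and 1732, whereas RpS15Ab had relaxed summits at ranks 28204 and 19359 in replicates 1 and 2 and none in replicate 3. The sequence around RpS15Ab is partly repeated, since 88.3% of the 30-base words within 250 bp of its TSS were unique in the genome, while all words were unique at 85 of the 88 members; the part of this in its low rank was not tested.

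**Figure D3:**
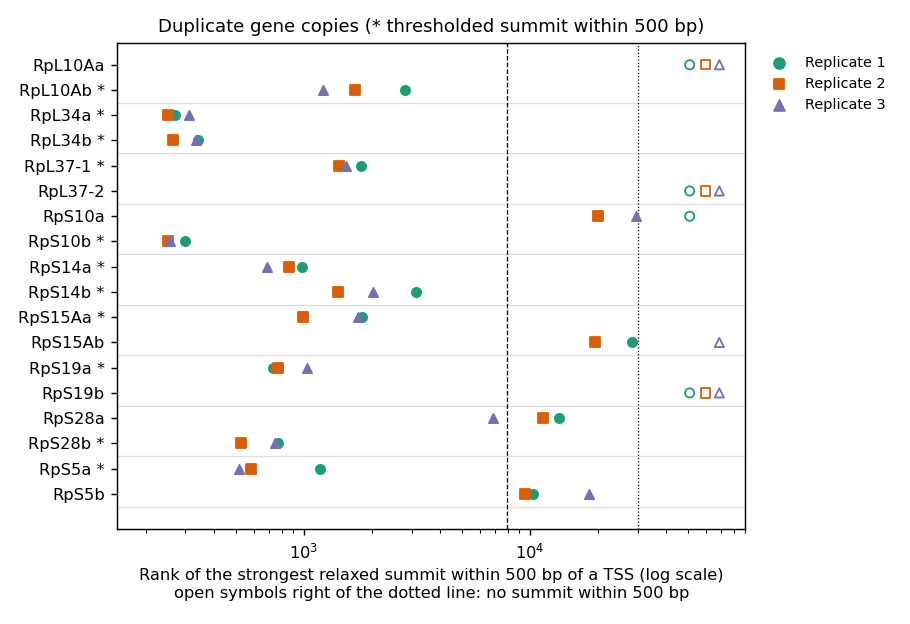
Rank of the strongest relaxed summit within 500 bp of a TSS (x axis, log scale) for the 18 genes of 9 duplicate pairs (rows) in each replicate (symbols). The dashed line marks rank 7896, the dotted line the end of the list at 30000, open symbols mark no summit, and asterisks mark the 11 copies bound in the thresholded list; the 7 other copies lie to the right of their partners in every replicate.

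The copies differed in the start-site sequence as well. Of the 11 bound copies 10 had a TCT word within 10 bp of a TSS, against 2 of the 7 copies not bound, RpL37-2 and RpS5b. RpL34a was the bound copy without one. Its window of 25 bp did hold one. The DRE word was found at 6 of the 11 bound copies and at 1 of the 7 copies not bound. Over all protein-coding genes the share was 4.09% for the TCT word and 10.2% for the DRE word. The counts of copies are a description of few genes, and the copies of a pair share their coding sequence ancestry.

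Outside the pairs the members without a thresholded summit were RpL10, RpL15, RpL21, RpL5, RpL38 and RpS3A. All 6 lay beyond the first or last thresholded summit of their arm, a grouping made after their values were seen, and their lack of a thresholded summit follows from it. The 64 single-copy members inside that span were all bound, which only restates that the 13 unbound members were these 6 and 7 copies. Over all protein-coding genes, inside and beyond the span, 27.0% were bound. Of the 212 protein-coding genes beyond the span, the strongest peaks of replicates 1, 2 and 3 bound 8, 18 and 16. RpL10 encodes a late-joining protein of the large subunit, RpL38 a large-subunit protein and RpS3A a small-subunit protein.

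Single replicates nevertheless had summits at all 6. RpL38 had summits at ranks 3325 and 3969 in replicates 2 and 3, at -51 and 2 bp. RpL10 had them at ranks 5938 and 7293, at -3 and -19 bp, and RpL15 at ranks 5622 and 8749, at -19 and 19 bp. RpL21 and RpL5 had a relaxed summit in replicate 2 only, at ranks 10221 and 10236. In replicate 1 and in the relaxed list made from the replicates together none of these 5 genes had a summit within 500 bp. RpS3A, on chromosome 4, showed another pattern, with ranks of 1930 and 1648 in replicates 1 and 3 at -26 and -83 bp, and no relaxed summit in replicate 2. The relaxed lists differed over these regions as a whole: beyond the span of the thresholded summits replicates 1, 2 and 3 had 123, 271 and 116 summits and the joint list had 72. The part of this difference between lists in the missing summits was not tested. All 6 genes held a TCT word within 10 bp of the TSS. None held the DRE or Motif 1 words, which only 10.2% and 8.71% of all protein-coding genes held.

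The TCT word was the sequence feature that most members shared. It lay within 10 bp of a TSS in 74 of 88 members (84.1%), against 4.79% of other bound protein-coding genes and 3.14% of other genes not bound; over all protein-coding genes its share was 4.09%. On the opposite strand the share was 2.27% in members and 2.85% in all protein-coding genes. When only the TSS nearest to the summit was read, the share was 63.6% in members against 2.54% in other bound genes. It was found in 45 of 50 large-subunit genes and 29 of 38 small-subunit genes. Members with the word were bound in 66 of 74 cases (89.2%) and members without it in 9 of 14 cases (64.3%). Among other protein-coding genes the bound share was 35.7% of 496 with the word and 26.3% of 13361 without it. Bound members with the word had a median offset of -24.5 bp and a median rank of 922.5, against -97 bp and 3714 for other bound genes with it. The part of the word in summit position and rank was not tested.

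The other words were searched on both strands from 250 bases before to 50 bases after each TSS, except the Inr word, which like TCT was read on the coding strand within 10 bp of the TSS. The DRE word TATCGATA, known to be bound by Dref and BEAF-32, was found at 29.5% of members, against 16.6% of other bound genes and 10.2% of all protein-coding genes. The Motif 1 word GGTCACAC, bound by M1BP, was found at 17.0% of members, against 14.3% of other bound genes and 8.71% of all protein-coding genes. A word noticed in the printed promoters and searched afterwards, GCCACAC, was found at 19.3% of members, against 9.17% of other bound genes and 6.38% of all. None of these 3 words contains another. None of the 13 members without a thresholded summit held the Motif 1 word and 1 of them held the DRE word.

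The E-box, GAGA and Inr words were scarcer in members. The E-box CAGCTG was found at 10.2% of members, against 30.8% of other bound genes and 22.3% of all protein-coding genes. GAGAG, bound by the GAGA factor Trl, was found at 20.5% of members, against 42.2% of other bound genes and 36.4% of all. The Inr word, TCA followed by G or T and then by T, was found at 3.41% of members, against 23.6% of other bound genes and 21.7% of all. The TATA word TATAAA was found at 53.4% of members, 56.1% of other bound genes and 51.3% of all. Among the planned words only TCT, DRE and, by a small margin, Motif 1 were thus more frequent in members than in other bound genes. GCCACAC, the remaining one of the 8 elements searched, was more frequent too. It was picked from promoters of the members themselves, so its excess in members cannot be weighed beside that of the planned words. A match to a word is not evidence of a bound factor.

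**Figure D4:**
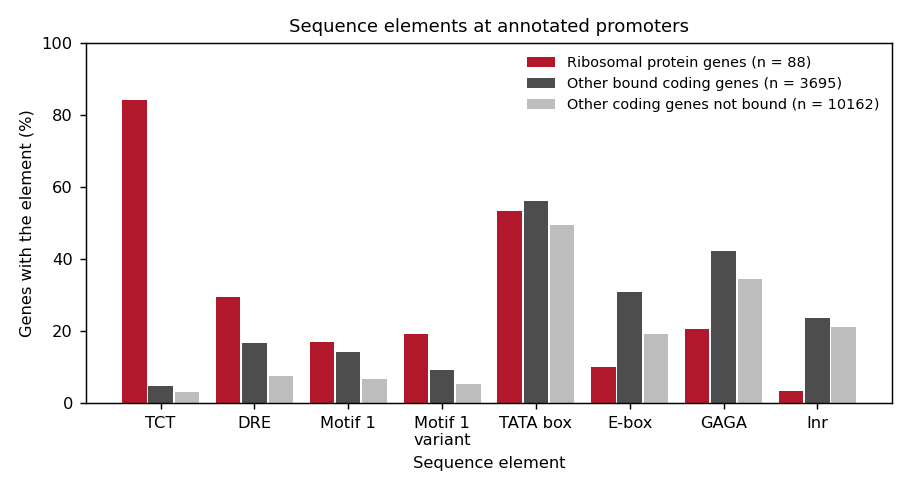
Percentage of genes (y axis) with each sequence element (x axis) for 88 ribosomal protein genes, 3695 other bound protein-coding genes and 10162 other protein-coding genes without a thresholded summit. TCT stands out at 84.1% of the ribosomal protein genes against 4.79% and 3.14% of the others, while the E-box, GAGA and Inr words are less frequent in them than in either other group.

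Many members sit head to head with another gene. A coding gene transcribed the other way started within 1000 bp upstream of 53 of 88 members (60.2%), against 36.1% of other protein-coding genes. Of these 53 members 49 (92.5%) were bound, and of the 35 others 26 (74.3%). Among other protein-coding genes the bound share was 47.4% with and 15.0% without such a neighbour. In 36 bound members (48.0%) the summit also lay within 500 bp of a TSS of another coding gene, and in none was it nearer to the start of another gene than to that of the member. No summit was shared between members. RpL13 and Dref, the gene of the DRE-binding factor, start 84 bp apart and share 1 summit of rank 388 and signal 1143.8, which lay 12 bp upstream of RpL13 and 72 bp upstream of Dref, with replicate ranks of 350, 493 and 424. Binding at such pairs cannot be assigned to either gene from summits alone.

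By arm, bound members were 15 of 17 on 2L, beside 25.6% of all protein-coding genes of that arm, 16 of 19 on 2R beside 25.4%, and 12 of 14 on 3L beside 27.8%. On 3R they were 17 of 22 beside 28.9%, on chromosome 4 they were 0 of 1 beside 6.25%, and on the X they were 15 of 15 beside 27.8%. Small RNAs that guide rRNA modification are often encoded in introns of ribosomal protein genes in flies, and 29 members held a snoRNA or snRNA gene. Of these 26 were bound, against 49 of the 59 members without one. Over all protein-coding genes 27.0% were bound. How many of those genes hold such an RNA gene was not counted, so these counts are not a trait of the members.

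Other gene lists around the ribosome had lower shares bound and summits farther from the TSS. Of 73 mitochondrial ribosomal protein genes 39 were bound (53.4%; replicates 53.4% ± 4.94, SD, n = 3), at a median offset of -142 bp and a median rank of 3210. Of 62 ribosome biogenesis genes matched from a list of 72 symbols, 31 were bound (replicates 48.4% ± 4.27, SD, n = 3), at -113 bp and rank 3997. The summit was within 100 bp in 89.3% of the bound cytoplasmic members, against 28.2% of the bound mitochondrial and 45.2% of the bound biogenesis genes. All 3 groups lay above the 27.0% of all protein-coding genes.

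Among 13 genes for factors known at promoters of this kind or at housekeeping promoters, 9 were bound in the thresholded list (69.2%). The replicates gave 74.4% ± 4.44 (SD, n = 3), and over all protein-coding genes 27.0% were bound in the thresholded list. Chro, a chromodomain protein of interbands, had the strongest summit of the 9 at rank 5 and 82 bp, with replicate ranks of 5, 6 and 5. Cp190 ranked 118, M1BP 338, Dref 388, row 739, Trl 1068, BEAF-32 3070, Max 3325 and Mnt 3958. Myc, Taf1, Tbp and Trf2 had no thresholded summit within 500 bp, although Myc had one of rank 6236 in replicate 1 and Trf2 one of rank 6403 in replicate 3. The median rank of the 9 bound genes, 739, was close to that of the ribosomal protein genes, and their median offset of -157 bp was not. The summit of Dref is the one counted for RpL13, so these groups share it.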

How the data were processed

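The members and gene lists were chosen with earlier results of these data known. The authors deposited narrowPeak lists on dm6: 1 thresholded by irreproducible discovery rate and relaxed lists for each replicate and for the replicates together, each against control per the file descriptions. Column 7 is a signal set by the authors' peak caller and column 9 a -log10 q-value in the deposited lists. Which aligner and caller made them is not given in the sources used here. A further 5 deposited lists on dm3 were not used. Signal scales differ between lists, so ranks within lists of equal length were compared.

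Summits were matched to 23998 TSSs of 18164 genes of Ensembl BDGP6, release 115, with Python 3 (pandas and numpy). No peak ran past the end of an arm. Each replicate was reduced to its strongest 7896 peaks. Subunits were compared by two-sided exact sign-flip permutation over 3 replicates. The search and the test were checked on simulated summits. Replicate precision is the SD over 3 biological replicates; p-values measure the spread between these libraries. Counting intervals cannot be given because depth is unknown.

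Values in every list are given for the 10 strongest members, every member without a thresholded summit, both copies of each pair, the members nearest the 500 bp limit and those missing from a replicate. Of these, 1 of the strongest members is not reported here. Sequence words were 7 planned and 1 added after promoters were read. Alternatives changed the TSS window, list length, TSS source, ranking column, the member list and the replicates. Analyses of word uniqueness, GC content and genes beyond the outermost summits were added after values were seen.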

Additional observations from a re-analysis of the deposited data

How the results depend on the processing

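In the thresholded list the median offset of bound members stayed between -26 and -24 bp over 11 alternatives and their median rank between 905 and 1029 over 10; the replicate mean of the median offset stayed between -32 and -27 bp over 14, leaving out each replicate included. The share bound in the thresholded list, 85.2%, was 83.0% with a 200 bp window, 76.1% with the list cut to 0.5 of its length, 82.8% with "like" symbols included, 92.4% with 1 copy per pair and, in an alternative chosen after seeing the data, 91.5% for members inside the span of the thresholded summits. The replicate mean, 86.4%, was 75.4% with lists cut to 0.5, 92.8% with all relaxed peaks, 93.2% with 1 copy per pair and 89.8% inside the span. The large minus small difference in share, 3.79 points, turned to -0.596 with a 1000 bp window, -3.40 with all relaxed peaks and -4.34 with 1 copy per pair, grew to 12.2 with lists cut to 0.5 and 9.39 inside the span, and ran from -0.842 to 6.42 with 1 replicate left out; beyond the settings' own construction the cause was not tested. The large minus small difference in median rank stayed below 0, from -915 to -303 over 13 alternatives. The TCT share, 84.1%, was 61.4% within 5 bp, 92.0% within 25 bp and 63.6% at the TSS nearest to the summit. Ranking by -log10 q gave no ranks, because 6318 of 7896 thresholded peaks were tied at the highest value. Unknown depth and 3 replicates limit all values, and weak or absent summits in 1 list cannot be told apart from shallow coverage.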
